A study of Mus musculus with 6 samples.

Results

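The C/EBP genes (Cebpa, Cebpb, Cebpd, Cebpe, Cebpg and Cebpz) were followed in H3K27Ac peak lists of mouse retina. They were chosen by name, with earlier results of these data in view, the promoter peaks of Cebpd among them, so the values of Cebpd are a description and carry no test. The 6 genes are 6 of 21911 protein-coding genes, and their loci, taken as the gene body with 50 kb on either side, held 27 of the 39950 regions formed by merging all peaks. H3K27Ac, acetylation of histone H3 at lysine 27, is found at active promoters and enhancers. The data were 6 peak lists of bulk retina of WT mice that were 3 months old at the first elevation of the intraocular pressure (IOP). In the 3 samples of the 4xIOP group, 1 eye had been held at a constant 30 mmHg for 1 h, biweekly, 4 times in all. The 3 control samples were untreated contralateral eyes, and all retinas were taken on day 2 after the 4th elevation. The control is thus the other eye of a treated mouse and not an eye of an untreated one, and the labels do not say which eyes came from the same animal. The shared protocol text also describes dasatinib and vehicle arms, but no label of these 6 samples names either. In 4 of the 6 samples (replicates 1 and 2 of both groups), the name written inside the deposited list is that of the other group, and every direction below holds for the samples as labelled.

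C/EBP proteins are leucine zipper (bZIP) transcription factors that bind DNA as dimers with each other or with other bZIP proteins. Cebpb and Cebpd are induced by cytokines of the IL-6 family through STAT3 and by other inflammatory signals, and they drive acute phase genes, in glia as well as in liver. Cebpa and Cebpe act in myeloid differentiation, and Cebpa also in liver and fat. Cebpg encodes a short dimer partner without an activation domain, and Cebpz, despite its symbol, encodes a CCAAT-binding protein outside the bZIP family.

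The peak lists hold no reads, but the deposited fold and p-value of each peak gave back the whole number of fragments at its summit and the local background. The level of a peak is used below as its summit fragments divided by the mean background of the sample. Where 3 values are given for a group, they are those of its replicates 1, 2 and 3 in that order. Per 10 kb, the control samples had 99.6, 173 and 132 background fragments and the 4xIOP samples 87.4, 91.5 and 135. The weakest peaks at that background had 9, 12 and 9 fragments in control and 10, 9 and 10 in 4xIOP, which are levels between 3.55 and 4.97, and a missing peak says only that the mark was not called at this depth. Control replicate 3 stood apart, with 36509 peaks against 16195 to 21893 in the other samples. Of the photoreceptor markers, 7 of 10 had a promoter peak in all 6 samples, while 0 of 10 microglia and macrophage markers (Cx3cr1, P2ry12 and C1qa among them) had one in any sample. For comparison with these and the following marker counts, 39.5% of all protein-coding genes had one in all 6 samples and 42.4% in none. The Müller glia markers had a peak at 1 of 8 promoters in all 6 samples (Glul), and the summed level of that list was 15.4 to 50.6 in control and 12.1 to 32.5 in 4xIOP. Neutrophil and monocyte, pigment epithelium and lens markers each had 1 marked promoter, in control replicate 3, and endothelium and pericyte markers had 1, in control replicates 1 and 3. In bulk retina, fewer cells that carry the mark and less of the mark per cell cannot be told apart.

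A promoter was called marked when at least 1 bp of a peak fell within 2.5 kb of a transcription start site (TSS), upstream or downstream. Of the 6 C/EBP genes, Cebpg and Cebpz were marked in all 6 samples, Cebpb in 5, Cebpd in 4, Cebpe in 1 and Cebpa in 0. Over all protein-coding genes, 39.5% were marked in all 6 samples and 42.4% in none. The control samples had 4, 4 and 5 marked C/EBP genes and the 4xIOP samples 3, 2 and 4. The means were 4.33 ± 0.577 and 3.00 ± 1.00 genes (SD, n = 3), and the groups met at 4 genes. Without control replicate 3 the difference of -1.33 genes became -1, and when only the top 16195 peaks of every sample were used it was -0.333. By the name inside the list, the 3 samples named for 4xIOP had 4 marked C/EBP genes each and the other 3 samples had 5, 3 and 2, and a Cebpd promoter peak was called in all of the former and in 1 of the latter. For comparison, 50.6% ± 5.64 of all protein-coding genes were marked in control samples and 45.9% ± 1.43 in 4xIOP samples (SD, n = 3). None of the 6 genes was marked exclusively in 1 group, in all its samples, a pattern that held for 0.361% of all genes toward control and 0.00% toward 4xIOP. These are 79 and 0 genes, and the numbers were 29 and 10 with only the top 16195 peaks of every sample and 82 and 36 without control replicate 3, and the 79 became 277 without control replicate 2.

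**Figure D1:**
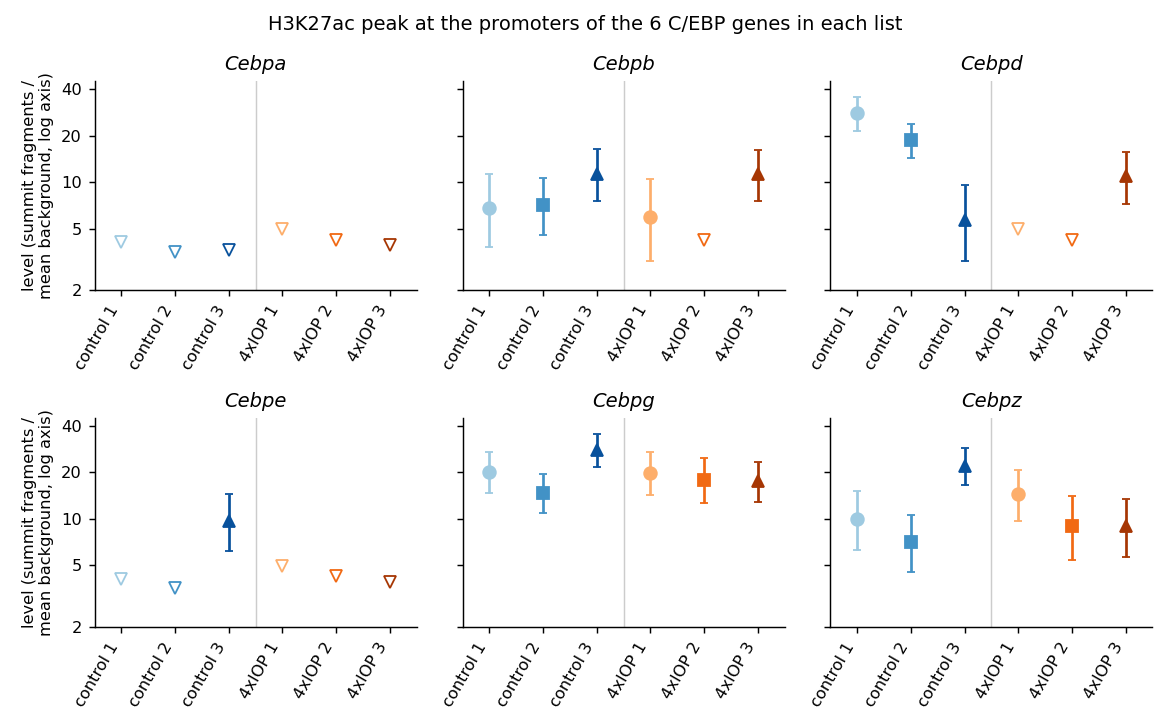
Level of the highest H3K27Ac peak at the promoter of each C/EBP gene (summit fragments over the mean background of the sample, log axis) in the 3 control and 3 4xIOP samples. Bars are exact Poisson 95% intervals of the fragments and cover counting error only. Open triangles mark samples with no promoter peak and stand at the level of the weakest peak called at the mean background of that sample, which is a minimum where the local background is higher. Cebpg lies between 14.8 and 27.9 in all samples, and Cebpd spans 5.67 to 27.8 where it was called.

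Cebpd (ENSMUSG00000071637.5), which encodes C/EBP delta, is a gene with 1 exon on the plus strand of chromosome 16 (chr16:15887286-15891031, mm10). Its promoter carried a peak in all 3 control samples and in 4xIOP replicate 3. Its summit held 61, 63 and 14 fragments in the controls and 28 in 4xIOP replicate 3, with exact Poisson 95% intervals of 46.7 to 78.4, 48.4 to 80.6, 7.65 to 23.5 and 18.6 to 40.5. The corresponding levels, in times the mean background, were 27.8, 18.6 and 5.67 for the controls and 10.9 for 4xIOP replicate 3. The value of 4xIOP replicate 3 thus fell inside the range of the controls, whose highest level was 4.91 times the lowest over the called samples. With 4xIOP replicates 1 and 2 not called, their level is unknown, and the weakest peaks called at the mean background of these samples had levels of 4.97 and 4.24.

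The called peak began within 70 bp downstream of the TSS in all 4 samples and covered the start of the exon (merged region chr16:15887295-15888279). Control replicates 1 and 2 had in addition a peak just upstream of the TSS (chr16:15886767-15887130) with 41 and 45 summit fragments, which was called in no other sample. Promoter peaks covered 1273, 1216 and 305 bp in the controls and 867 bp in 4xIOP replicate 3. The local background relative to the mean had the same order. The 10 kb window around the summit held 655 and 734 fragments in control replicates 1 and 2, or 6.57 and 4.23 times the mean, and 404 or 2.99 times the mean in 4xIOP replicate 3. In control replicate 3 it held no more than the mean of 132. These local backgrounds were ranked against those at the highest promoter peak of each marked protein-coding gene of the sample. They stood at the 95.3, 94.2 and 88.3 percentile, and at 1.74 in control replicate 3. The fold is taken over this local background. Among all peaks of the sample, the fold of the Cebpd peak ranked at the 48.2, 58.8 and 58.0 percentile in control. It ranked at 18.5 in 4xIOP replicate 3, so that the fold did not follow the fragments.

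The other regions of the Cebpd locus were called in samples of both groups. The region at the promoter of the neighbour Mzt2, 24.5 kb upstream, was called in all 6 samples with 30, 33 and 63 summit fragments in control and 34, 35 and 38 in 4xIOP. A region in an intron of Spidr, 33.1 kb downstream of the Cebpd TSS (chr16:15920099-15920717), was called in control replicates 2 and 3 with 34 and 16 fragments and in 4xIOP replicates 1 and 2 with 15 and 14. Cebpd had no promoter peak in the latter pair of samples, so that this region and the promoter were called together only in control replicates 2 and 3. Prkdc, the remaining coding gene of the locus, was overlapped by no region here.

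**Figure D2:**
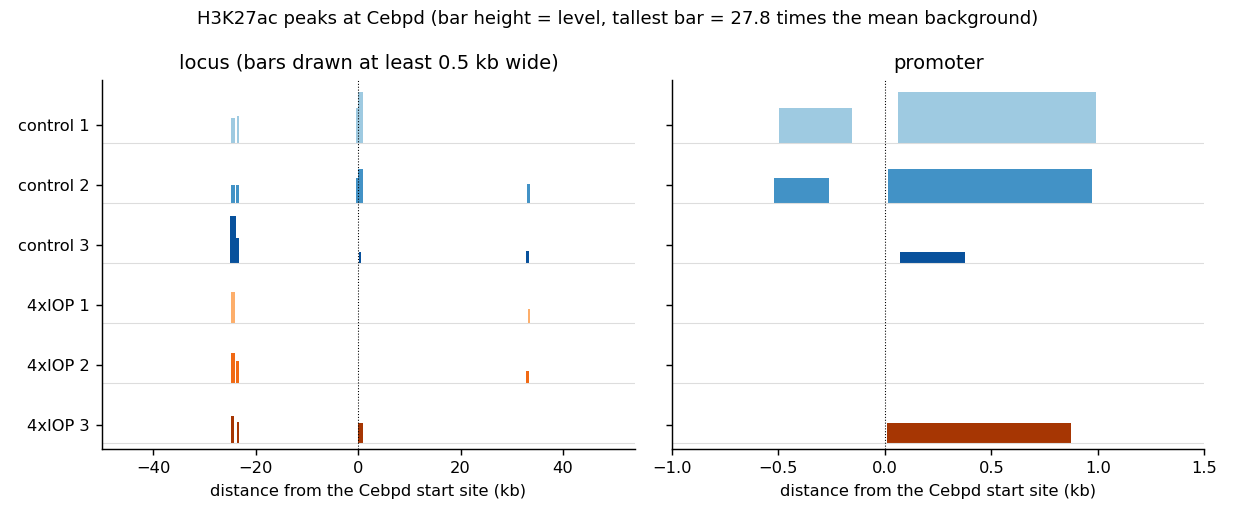
H3K27Ac peaks at Cebpd in the 6 samples by distance from the TSS in kb, over the locus (left) and at the promoter (right). Each row is 1 sample, each bar is a peak, and the height of a bar is its level, with the tallest bar at 27.8. The peaks near -24 kb stand in all samples, those at the promoter in 4 of 6, and the peak upstream of the TSS in control replicates 1 and 2.

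The exact pattern of Cebpd, marked in the 3 controls and 4xIOP replicate 3, was shared by 78 genes including Cebpd itself (0.356% of all protein-coding genes). Among the other 77, the 5 with the smallest distance of log2 level to Cebpd over these 4 samples were Irf8, Socs3, Oas1c, St6galnac5 and Stap2. Irf8 encodes an interferon regulatory factor of myeloid cells, and Socs3 the feedback inhibitor of STAT3 signalling. Irf8 had 39, 38 and 19 summit fragments in control and 32 in 4xIOP replicate 3, and Socs3 had 48, 49 and 21 and then 50. Both, like Cebpd, had fewer fragments in control replicate 3 than in the other 3 samples that called them. They were chosen by closeness to Cebpd in these samples, so this shared order follows in part from the choice. The distance was 1.09 for Irf8 and 1.14 for Socs3, and it ran from 1.70 to 1.94 for Oas1c, St6galnac5 and Stap2.

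Samples differ in how strongly promoters stand over the background, so levels were also divided by the median promoter level of the sample. That median, over the 8654 genes marked in all 6 samples, was 16.0, 10.9 and 28.8 in control and 16.9, 15.1 and 11.3 in 4xIOP. On this scale the Cebpd promoter stood at 1.74, 1.70 and 0.197 times the median in the controls and at 0.966 in 4xIOP replicate 3. The weakest peaks called at the mean background in 4xIOP replicates 1 and 2 were at 0.294 and 0.281 times the median, above the Cebpd value of control replicate 3, and a higher local background would raise this minimum. Socs3 had 1.37, 1.32 and 0.296 in control and 1.72 in 4xIOP replicate 3. As it was named above for levels close to those of Cebpd in the same samples, it is no separate evidence of this order. Among the samples with a called peak, the 3 in which Cebpd and Socs3 were high (control replicates 1 and 2, 4xIOP replicate 3) are the 3 whose deposited list is named for 4xIOP, and the part of that naming in the result was not tested. The shortest peak was 220, 195 and 190 bp in these 3 samples and 187, 230 and 232 bp in the other 3.

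Stat3 and Il6st, the transcription factor and the shared receptor subunit of the IL-6 family, were looked at for this reason, after their values had been seen. Both promoters were marked in all 6 samples. Stat3 had 94, 116 and 100 summit fragments in control and 53, 47 and 78 in 4xIOP, or 2.69, 3.14 and 1.41 and then 1.56, 1.47 and 2.69 times the median promoter of the sample. Il6st had 70, 69 and 68 fragments in control and 29, 30 and 57 in 4xIOP, or 2.00, 1.86 and 0.958 and then 0.853, 0.938 and 1.97 times the median. Over the mean background, Stat3 had levels of 42.9, 34.3 and 40.5 for control and 26.4, 22.1 and 30.4 for 4xIOP, every 4xIOP sample below every control, as for 1.01% of the genes marked in all samples, and the levels of Il6st overlapped. Relative to the median promoter the groups overlapped for both genes, and control replicates 1 and 2 and 4xIOP replicate 3 were the highest. This order was found for 8.30% of the genes marked in all 6 samples and the opposite one for 4.53%, and among the 15 such genes of the inducing signals it was found for 3 (Stat3, Il6st and Nfkb1) and the opposite one for 1 (Nlk). It was not limited to this pathway, and of 22 bZIP partners and modulators marked in all samples 4 had it (Dbp, Ep300, Junb and Jund) and 0 the opposite. Of the target genes marked in all samples, 1 of 5 metabolic and growth arrest genes had it (Gadd45a). It was found for 0 of 1 inflammatory and 0 of 2 myeloid targets, and the opposite for 0 in each target list. Other genes of the same pathway, also named after their values were seen, had another order. Lifr, a receptor subunit for LIF, stood at 1.86, 2.27 and 1.93 times the median in control and 2.21, 2.47 and 1.48 in 4xIOP, lowest in 4xIOP replicate 3. Jak1, a kinase of these receptors, was highest in control replicate 3 at 1.30, and Tyk2, a related kinase, was marked only in control replicate 3 and 4xIOP replicates 1 and 2.

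**Figure D3:**
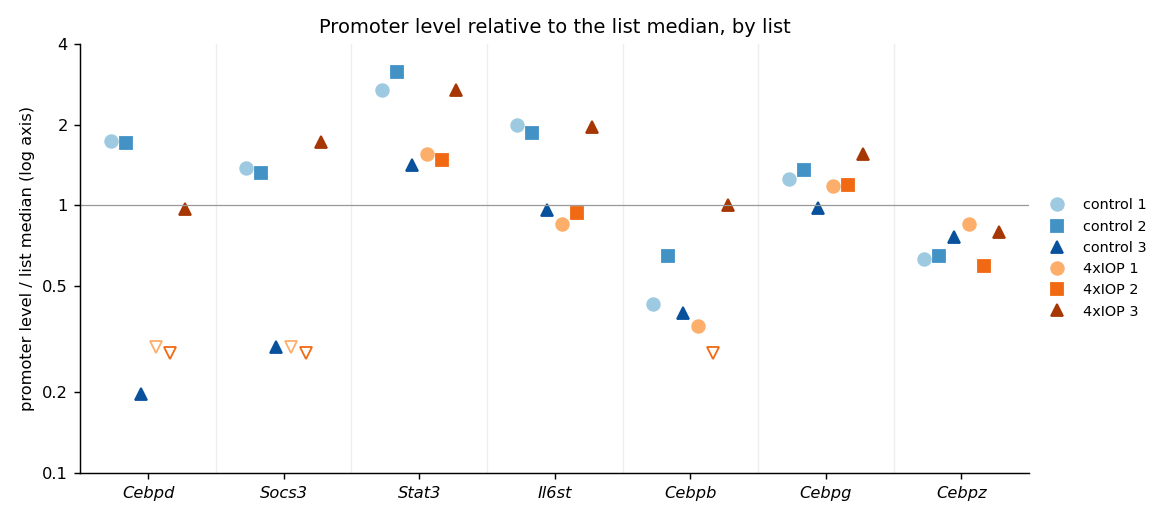
Promoter level divided by the median promoter level of the sample (log axis) for Cebpd, 3 genes of the IL-6 and STAT3 pathway (Socs3, Stat3, Il6st) and 3 other C/EBP genes, 1 symbol per sample. Socs3 was chosen for its closeness to Cebpd, and Stat3 and Il6st after their values were seen. Lifr, Jak1 and Tyk2 of the same pathway had another order and are not drawn. Open triangles mark samples with no promoter peak, at the weakest level called at the mean background, and their true level is unknown. Control replicates 1 and 2 and 4xIOP replicate 3 are the 3 highest of the 6 samples for Stat3, Il6st and Cebpg, and the 3 highest of the samples with a called peak for Cebpd, Socs3 and Cebpb, and they are not for Cebpz.

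Cebpb (ENSMUSG00000056501.3) encodes C/EBP beta, the inflammation-responsive relative of Cebpd, and has 1 exon on the plus strand of chromosome 2 (chr2:167688915-167690418, mm10). Promoter sequences of the RefSeq table, which reach from 250 bases upstream to 50 bases downstream of the TSS (GRCm38.p6), were matched for 3 of the 6 genes (Cebpa, Cebpb and Cebpg). The 250 bases upstream of the TSS of Cebpb (chr2:167688665-167688914, plus strand), the promoter that was marked in most but not all samples, are shown 5′ to 3′, with capitals for the letters TGACG on either strand, the core of a site of the CREB and ATF family.
Cebpb: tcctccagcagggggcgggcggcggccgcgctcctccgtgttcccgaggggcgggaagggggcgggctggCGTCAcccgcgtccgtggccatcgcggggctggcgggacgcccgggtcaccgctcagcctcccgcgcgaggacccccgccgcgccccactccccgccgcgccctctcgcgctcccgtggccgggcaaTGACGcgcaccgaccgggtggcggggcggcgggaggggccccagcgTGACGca
The letters TGACG were found 3 times in the 300 bases around the Cebpb TSS, and 20.8% of the 32851 promoters of the table held them. These letters are also contained in the full CRE, which is counted apart. A GC box (GGGCGG, either strand, left in lower case) was found 5 times and is in 35.7% of promoters. The C/EBP palindrome TTGCGCAA (0.183% of promoters), the composite C/EBP and ATF element TGATGCAA (0.895%), the full CRE TGACGTCA (1.79%), the STAT site TTCCNGGAA (1.15%) and the NF-kB core GGNNNTTCC (18.5%) were not found in these 300 bases on either strand. The window had a GC content of 80.7% and 50 CpG dinucleotides, against medians of 52.7% and 7 over the table.

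The Cebpb peak lay mainly on the exon rather than on this upstream stretch, with summits 190 to 750 bp downstream of the TSS (merged region chr2:167688874-167690043). In fragments, its summit had 15, 24 and 28 for control and 12 and 29 for 4xIOP replicates 1 and 3, and no peak was called in 4xIOP replicate 2. Levels were 6.84, 7.10 and 11.3 in control and 5.97 and 11.3 in 4xIOP, a range of 1.90-fold over the 5 samples. The mean log2 level was 3.04 ± 0.41 in control (SD, n = 3) and 3.04 ± 0.65 in 4xIOP (SD, n = 2), a difference of 0.00258. It leaves out the sample with no called peak. Its sign changed with the single 4xIOP sample kept, at -0.458 without 4xIOP replicate 3 and 0.463 without 4xIOP replicate 1. On division by the median promoter level the difference was 0.312. With only the top 16195 peaks of every sample the peak was left in control replicate 2 and 4xIOP replicate 3 alone, and these 2 samples differed by 0.671. Against the median promoter of the sample, the peak was at 0.429, 0.649 and 0.394 in control and 0.353 and 1.00 in 4xIOP. Its level was thus below the median promoter in every sample that called it but 4xIOP replicate 3. Its fold ranked at the 20.6 to 65.4 percentile. The same 5 samples marked 1.20% of all genes, and of the other 262 genes with this pattern the closest in log2 level were Syt4, Cntn1, Ifit3b, Elovl1 and Nipsnap3b, at distances of 0.486 to 0.768. The promoter window of the noncoding gene A530013C23Rik overlaps the same region, and the mark cannot be divided between the transcripts.

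Upstream of Cebpb the locus crossed Tmem189, where peaks were called from sample to sample. A region 38.1 kb upstream was called in the 3 controls and 4xIOP replicate 2, with 27, 25 and 34 fragments and then 23. The region that covered a start site of Gm20431 was called in 3 samples, and the one that covered a start site of Gm14320 in 2, each in both groups. Both regions lay in the promoter windows of Tmem189, Gm20431 and Gm14320. In 4xIOP replicate 2, which lacked the Cebpb peak, the region 38.1 kb upstream was the only one of the locus.

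Cebpg (ENSMUSG00000056216.9), the dimer partner without an activation domain, had the highest fold of the family over the local background in every sample. It lies on the minus strand of chromosome 7 (chr7:35046422-35056573, mm10). The promoter marked in every sample is shown from 250 to 8 bases upstream of the RefSeq TSS (chr7:35056574-35056816, minus strand), with capitals for ATTGG, which is the CCAAT box on the other strand.
Cebpg: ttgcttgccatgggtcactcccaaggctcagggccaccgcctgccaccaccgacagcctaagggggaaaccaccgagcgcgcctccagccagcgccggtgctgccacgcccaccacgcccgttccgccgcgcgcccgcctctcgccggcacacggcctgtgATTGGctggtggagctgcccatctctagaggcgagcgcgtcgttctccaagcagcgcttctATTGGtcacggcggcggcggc
The CCAAT box (CCAAT, either strand) was found 2 times around the Cebpg TSS and is held by 37.4% of promoters. The GC box was found 1 time, and the C/EBP, CRE, STAT and NF-kB letters searched above, TGACG included, were not found.

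The peak covered an annotated TSS or began within 39 bp of it in all samples (merged region chr7:35055570-35056590). It lay downstream of the upstream stretch shown above, and only the peak of 4xIOP replicate 2 reached into the end of that stretch. A further peak, called in control replicate 3 alone (chr7:35056741-35057040), overlapped the stretch. The summit held 44, 50 and 69 fragments in control and 40, 38 and 45 in 4xIOP, and the levels were 20.1, 14.8 and 27.9 in control and 19.9, 17.9 and 17.5 in 4xIOP. The 3 4xIOP levels fell between the lowest and the highest control. On the log2 scale the mean level was 4.34 ± 0.46 for control and 4.20 ± 0.10 for 4xIOP (SD, n = 3), a difference of -0.14, while the median over the 8654 genes marked in all samples was -0.27. Relative to the median promoter the difference was 0.13, and without control replicate 3 it was 0.0961 on the first scale. The fold ranked at the 89.8 to 96.7 percentile of each sample. Every 4xIOP sample above every control was seen in 0.0347% of the genes marked in all samples, and every 4xIOP sample below every control in 1.01%, and neither held for Cebpg or Cebpz.

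Cebpz (ENSMUSG00000024081.9), the CCAAT-binding protein, lies on the minus strand of chromosome 17 (chr17:78919006-78937066, mm10) head to head with Ndufaf7, a gene of mitochondrial complex I assembly. Every sample had a pair of peaks, on the first exon of Cebpz (chr17:78936556-78937014) and across the Ndufaf7 start (chr17:78937124-78937803), with the Cebpz TSS between them. The peak on the Cebpz side had 22, 24 and 54 fragments in control and 29, 17 and 23 in 4xIOP. The peak on the Ndufaf7 side had 17, 23 and 54 in control and 21, 19 and 21 in 4xIOP. The higher of the pair gave control levels of 10.0, 7.10 and 21.9 and 4xIOP levels of 14.4, 8.95 and 8.96, and control replicate 3 was the highest while control replicate 2 was the lowest. On the log2 scale the mean level was 3.54 ± 0.83 for control and 3.39 ± 0.40 for 4xIOP (SD, n = 3). The difference of -0.14 was within the spread. It was 0.12 relative to the median promoter and 0.315 without control replicate 3.

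Cebpe (ENSMUSG00000052435.7), a factor of granulocyte maturation, lies on the minus strand of chromosome 14 (chr14:54710360-54712174, mm10). It was counted as marked only in control replicate 3, the sample with the most peaks, as was the case for 5.23% of all genes. This count hung on the edge of the window. The merged region chr14:54714508-54715223 upstream of the TSS was called in control replicates 1 and 3 with 18 and 24 fragments and in 4xIOP replicates 1 and 2 with 13 and 16. In control replicate 3 the peak reached 167 bp into the window, and in the other 3 samples it ended 180, 209 and 207 bp outside it. With a window of 3 kb the number of marked C/EBP genes therefore changed in these 3 samples, and the mean difference between groups went from -1.33 to -1. The region was called in 2 samples of either group.

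Cebpa (ENSMUSG00000034957.10), the founding member of the family and a regulator of myeloid and liver cells, is the next C/EBP gene on chromosome 7 (chr7:35119293-35121928, plus strand, mm10). Its locus of 103 kb held 0 regions in any sample. The nearest peak was that of the Cebpg promoter, 62.3 to 62.8 kb from the Cebpa TSS. The 250 bases upstream of the TSS (chr7:35119043-35119292, plus strand) are shown for comparison with its marked neighbour, and none of the letters searched, GC and CCAAT boxes included, were found in the 300 bases around the TSS.
Cebpa: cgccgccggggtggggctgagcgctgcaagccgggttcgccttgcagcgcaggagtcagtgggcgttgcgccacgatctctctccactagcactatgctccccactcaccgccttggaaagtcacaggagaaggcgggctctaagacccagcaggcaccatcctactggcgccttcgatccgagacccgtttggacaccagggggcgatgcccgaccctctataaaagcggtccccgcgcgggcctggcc
The window had a GC content of 67.3% and 29 CpG dinucleotides, against 71.7% and 38 for Cebpg, so both lay well above the medians of the table.

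All loci together held 15, 17 and 22 peaks in the controls and 12, 15 and 13 in the 4xIOP samples. The means were 18.0 ± 3.61 and 13.3 ± 1.53 peaks (SD, n = 3), a difference of -4.67, and the groups met at 15. This is a ratio of 0.741 between the group means, and over all peaks of the samples the ratio was 0.732 (means of 26105 in control and 19112 in 4xIOP), so the loci stood near the background. Without control replicate 3 the difference was -2.67, and when only the top 16195 peaks of every sample were used it was 0.333. Of the 27 merged regions, 6 were called in all 6 samples (26.4% of all regions were), and 8 in 1 sample (37.5% of all regions were), of which 5 were in control replicate 3. By position, 8 lay at the promoter of the C/EBP gene itself, 9 at the promoter of another gene and 10 away from promoters (48.0% of all regions). Of these 10, 0 were called in all samples, against 9.41% of all regions away from promoters. Regions called in all controls and in no 4xIOP sample made up 1.05% of all regions and 1 of the 27. It lay in an intron of Slc7a8 in the Cebpe locus, 42.9 kb upstream of the Cebpe TSS, with 26, 26 and 24 fragments. The opposite pattern, 0.0150% of all regions, was found in 0 of the 27.

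**Figure D4:**
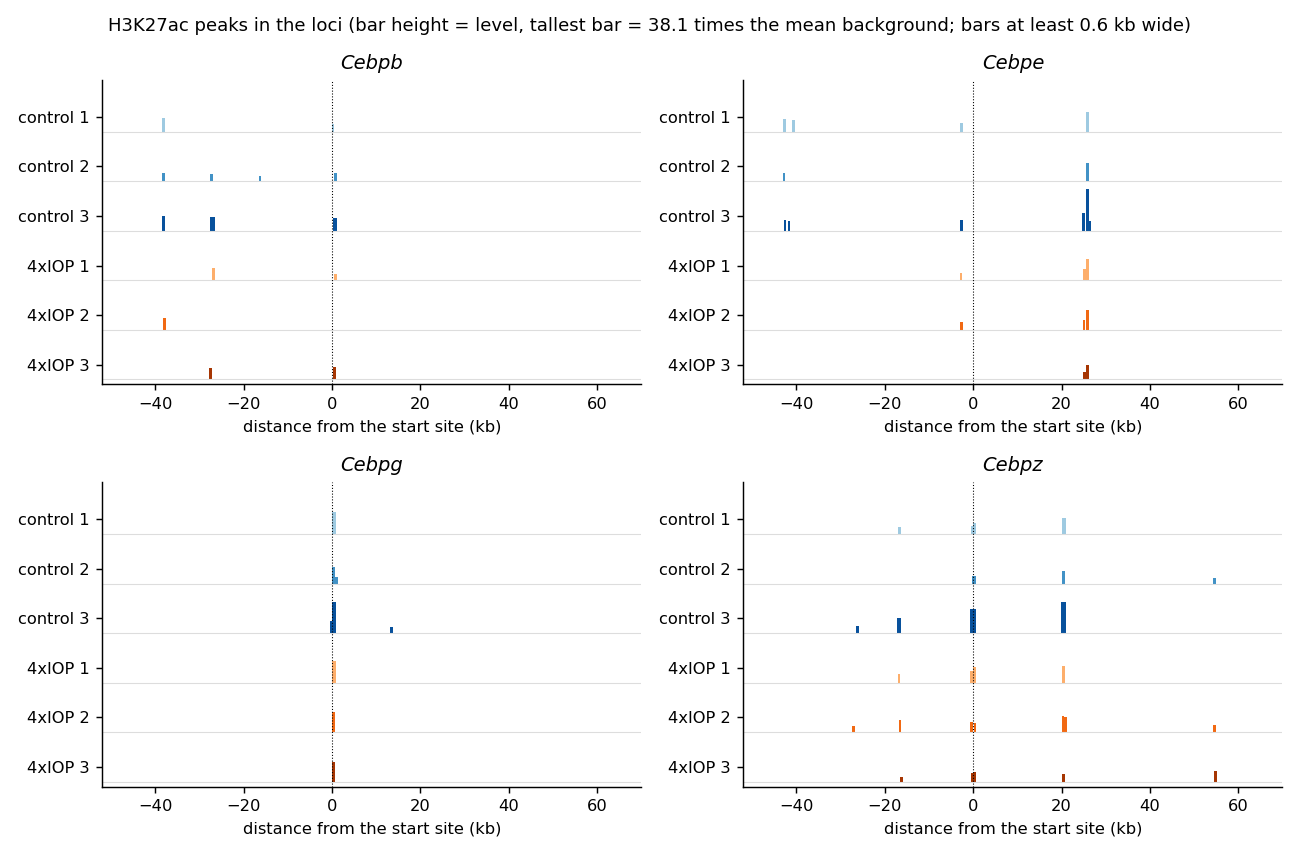
H3K27Ac peaks in the loci of Cebpb, Cebpe, Cebpg and Cebpz in the 6 samples, by distance from the TSS in kb along the strand of the gene. Each bar is a peak and its height is the level, with the tallest at 38.1. Cebpg and Cebpz have promoter peaks in all samples, Cebpb in 5, and the peak 2.7 kb upstream of Cebpe is in 4.

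The regions called in all 6 samples were compared by the rank of their fold within each sample, as normal scores, with limma over all 10529 such regions. The Cebpg promoter had a difference (4xIOP minus control) of 0.05 ± 0.33 (SE), and the pair of regions at the Cebpz promoter had differences of -0.06 ± 0.33 and -0.08 ± 0.34. The regions of neighbours were those at Mzt2 (0.77 ± 0.33), Acin1 (-0.42 ± 0.31) and Cebpzos (-0.65 ± 0.30). The adjusted p was 0.9999 for all 6 (limma, Benjamini-Hochberg). Over all regions, 0.00% were called higher and 0.00% lower at an adjusted p under 0.05 (0 of 10529 in either direction), and 333 had an unadjusted p under 0.05. The promoters of Cebpb, Cebpd and Cebpe were not called in all samples and were not in this fit.

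Genes that act upstream of, beside or downstream of the C/EBP factors were counted by group. Of 28 genes of the inducing signals (cytokines, receptors, kinases and transcription factors), 15 were marked in all 6 samples and 8 in none, against 39.5% and 42.4% of all protein-coding genes. Rela, the activating subunit of NF-kB, had 64, 50 and 93 summit fragments in control and 46, 36 and 57 in 4xIOP, and Crem, a cAMP-responsive factor, had 50, 64 and 100 and then 52, 44 and 61. Both groups overlapped for Rela and for Crem. The cytokine genes Il6, Lif, Osm, Cntf, Il1b and Tnf had no promoter peak in any sample, while Clcf1, a cytokine gene of the IL-6 family that was named after its values were seen, was marked in all 6 with 21, 30 and 31 fragments in control and 21, 18 and 23 in 4xIOP. Socs3 was the gene of this group with the pattern of Cebpd.

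Of 28 bZIP partners and modulators, 22 were marked in all 6 samples and 3 in none (39.5% and 42.4% of all genes), the latter being Batf, Batf2 and Batf3. Ep300, the acetyltransferase that C/EBP factors recruit, had 95, 104 and 168 fragments in control and 88, 69 and 79 in 4xIOP. Atf4, the stress-responsive partner of C/EBP factors, had 111, 103 and 164 in control and 77, 110 and 80 in 4xIOP. Over the mean background, Ep300 had levels of 43.3, 30.8 and 68.0 for control and 43.8, 32.5 and 30.8 for 4xIOP, and the groups overlapped for both genes.

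The target genes were counted against the same shares of all genes (39.5% in all 6 samples, 42.4% in none). Of 22 inflammatory and acute phase genes, 19 had no peak in any sample and only Lcn2, the acute phase lipocalin, was marked in all 6, with 40, 36 and 55 fragments in control and 42, 45 and 24 in 4xIOP. Of 14 myeloid genes, 11 had no peak, while Cd14 and Csf2ra were marked in all 6 samples with 14 to 34 and 18 to 37 fragments. Of 18 metabolic and growth arrest genes, 5 were marked in all 6 samples and 9 in none. Trib3, a pseudokinase of the stress response, had 59, 53 and 90 fragments in control and 48, 43 and 31 in 4xIOP, and Asns, asparagine synthetase, had 31, 17 and 34 and then 17, 12 and 24. Over the mean background, the levels of Trib3 were 26.9, 15.7 and 36.5 for control and 23.9, 20.3 and 12.1 for 4xIOP, and the groups overlapped for both genes. No gene of the 5 groups was marked exclusively in control or exclusively in 4xIOP throughout the 3 samples. Marked promoters made up 61.9% ± 5.46 of the inducing signals in control samples and 57.1% ± 0 in 4xIOP samples (SD, n = 3), and 89.3% ± 0 and 85.7% ± 3.57 of the bZIP partners. They were 10.6% ± 2.62 and 6.06% ± 2.62 for the inflammatory targets, 16.7% ± 4.12 and 14.3% ± 0 for the myeloid targets, and 46.3% ± 3.21 and 35.2% ± 6.42 for the metabolic targets. Over all protein-coding genes the difference was -4.67 percentage points, and it was -2.38 to -11.1 for the 5 groups.

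**Figure D5:**
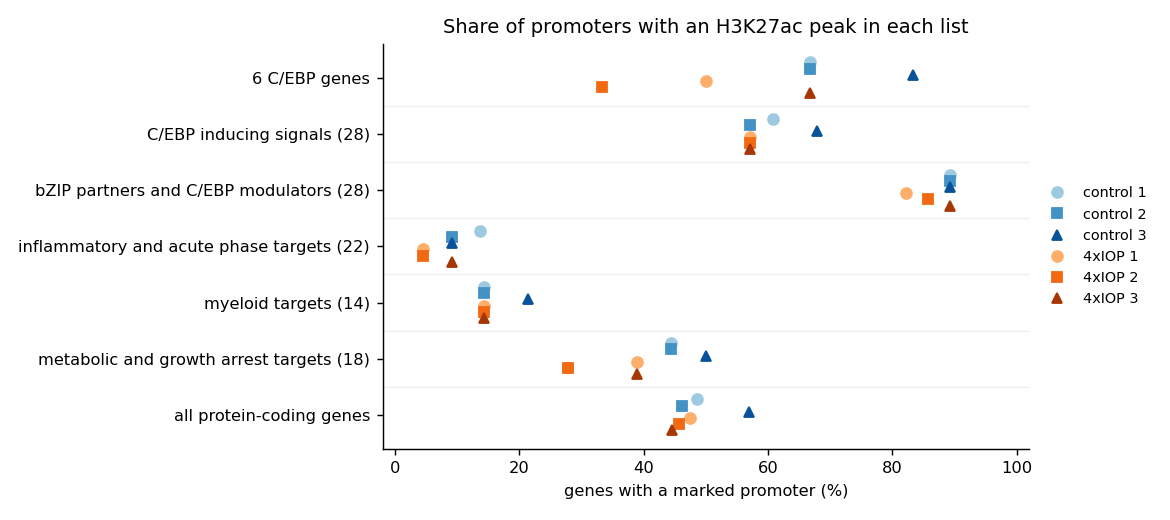
Percentage of genes with an H3K27Ac peak at the promoter among the 6 C/EBP genes, the 5 groups of related genes (number of genes in parentheses) and all protein-coding genes, with 1 symbol per sample. The bZIP partners lie between 82.1% and 89.3% and the inflammatory targets between 4.55% and 13.6%, against 44.6% to 56.9% for all genes.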

How the data were processed

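H3K27Ac ChIP-seq of 6 retinas (3 control, 3 4xIOP) was used as 1 narrowPeak list per sample, with groups and replicate numbers from the labels. Each deposited peak has a fold, the authors' ratio of the summit pile-up over local background, with its −log10 p-value and q-value as deposited by the authors from their peak caller. The submitters' processing notes name STAR 2.7.8a, MACS2, HOMER, edgeR, bedtools 2.29.2 and mm10, without saying which step used which. The deposited integer score was not used. In these files, 0 peaks ended past a GRCm38 chromosome.

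Under the Poisson model of such a caller, with fold as (fragments + 1) / (background + 1), fragments and background were solved for each peak, and at least 99.99% returned the deposited p within 0.001. The mean background is the lowest found in a list. Peaks of chromosomes 1 to 19, X and Y only were joined to TSS positions of protein-coding genes (GENCODE vM21 basic, 1 entry per symbol). Overlapping peaks of the 6 lists were merged into regions. Regions of the loci were placed at promoters by the TSS positions of all annotated genes, noncoding genes included. Normal scores of the rank of fold were tested with limma 3.58.1 (R 4.3.3), two-sided, with Benjamini-Hochberg adjustment at 0.05. The fit and the recovery were tested on simulated data. With 3 samples against 3, an exact permutation test cannot give a p under 0.1, so single values are given with their spread. Where separate animals are not stated, p-values measure only the spread between these samples.

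The 6 members and the gene and marker lists were chosen with earlier results of these data known. Named were all members, of each gene list the genes marked as Cebpd or in all samples of 1 group alone, and the 2 highest by mean fold percentile among those marked in all samples. The 5 genes nearest to Cebpd and to Cebpb were also named. Other genes of the lists that the text names, among them Stat3, Il6st, Lifr, Jak1, Tyk2 and Clcf1, lie outside this rule and were chosen after their values were seen. Alternatives were a −log10 q of at least 5, equal numbers of top peaks, a promoter window of 1 kb, summits inside the window, a locus flank of 20 kb, samples left out, samples whose list carries the name of their label, and fragment-length classes split at a shortest peak of 200 bp. A window of 3 kb and division by the median promoter level were added after seeing the data.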

Additional observations from a re-analysis of the deposited data

How the results depend on the processing

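Values are 4xIOP minus control. The mean difference in marked C/EBP genes (-1.33) stayed negative under every setting tried with the samples as labelled, at -0.333 with equal numbers of top peaks, -0.5 within the samples with a shortest peak below 200 bp and -0.833 to -1.83 with each sample left out. The difference in samples with a Cebpd promoter peak (-2) was -1 with a −log10 q of at least 5, with equal numbers of top peaks and within both fragment-length classes, 0 in the pair of samples whose list is named as its label, and -3 to -1 with each sample left out. The log2 difference of the Cebpb level (0.00258) was 0.671 with equal numbers of top peaks, where 1 sample per group kept the peak, and ran from -0.458 to 0.463 with each sample left out, both ends resting on 1 4xIOP sample. The pair of samples named as their label gave -0.672 for Cebpg and -1.29 for Cebpz, against -0.363 to 0.0961 and -0.497 to 0.315 with each sample left out. For Cebpg and Cebpz the sign turned without control replicate 3 and on division by the median promoter level, and for Cebpz also within the samples with a shortest peak above 200 bp (0.179). Peaks in the 6 loci (-4.67) gave 0.333 with equal numbers of top peaks, -2.33 with a locus flank of 20 kb, -9 in the pair named as their label, -1.50 within the samples with a shortest peak above 200 bp, and -6.17 to -2.67 with each sample left out. Promoters marked in all controls and no 4xIOP sample numbered 79, or 29 with equal numbers of top peaks and 82 to 277 with each sample left out. The opposite count of 0 became 10 with equal numbers of top peaks, 1 with the summit inside the window and 0 to 36 with each sample left out. The causes were not tested. The limma count of 0 regions stayed 0 under the alternatives fitted to regions, namely the −log10 q minimum, equal top peaks, ranks of summit fragments, the fragment-length class as a term, each sample left out and the replicate block (289 at an unadjusted p under 0.05, 251 to 701 with each sample left out). Same-numbered samples did not deviate together (correlations of -0.0209, -0.0573 and -0.146), 0 of 6 samples correlated best with their own number, and the block changed no call. 4xIOP replicates 1 and 2, which lack the Cebpd peak, had the lowest mean background (87.4 and 91.5 fragments per 10 kb), and the part of depth was not tested.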
